A study of Mus musculus with 15 samples.

Results

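Left ventricular cardiomyocytes isolated from mice 14 days after a whole-body dose of iron ions were compared with cardiomyocytes from sham mice. The comparison rested on 5 of the 15 expression arrays of the series, the 2 arrays whose titles give day 14 after iron and all 3 sham arrays. The mice were male C57Bl/6NT animals, 8 to 9 months old at irradiation. The iron day 14 group received 0.15 Gy of 1 GeV per nucleon iron ions, densely ionising particles with a linear energy transfer of about 151 keV per µm, at 0.05 Gy per min. The sham group received no particles and came from day 1 (2 arrays) and day 3 (1 array). The remaining 10 arrays came from iron-exposed mice at day 1 (3 arrays), day 3 (3), day 7 (2) and day 28 (2), and entered the same statistical model. All hearts were digested with collagenase, and over 90% of the recovered cells were calcium-tolerant cardiomyocytes, with a few inflammatory or endothelial cells possible per the labels.

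No sham array came from day 14, so the exposure and the later collection day cannot be told apart in any value of iron day 14 against sham. The labels do not say that the arrays of a group were separate animals, and the p-values then measure only the spread between arrays, which may be technical. Because each array measured a bulk extract, fewer cells of a type and less RNA per cell cannot be told apart. All values are log2 signals, and all differences are iron day 14 minus sham on that scale with their standard error (SE). Sham values are listed in the order day 1 replicate 1, day 1 replicate 2 and day 3.

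Small nucleolar RNAs guide chemical modification of other RNAs, mainly ribosomal RNA. C/D box members direct ribose methylation and H/ACA box members direct pseudouridylation, and in mammals most are cut out of the introns of host genes, many of which encode ribosomal or nucleolar proteins. The circadian clock is a feedback loop in which the activators Arntl and Clock switch on the Per and Cry repressors and output factors such as Dbp, so that activator and repressor transcripts peak at opposite times of the day. Both systems run in heart muscle cells.

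Of 9969 genes tested, 83 passed at an adjusted p under 0.05 (0.833%). Of these, 59 were higher (0.592%) and 24 lower (0.241%) at iron day 14 than in sham, and 31 and 9 of them differed by more than 2-fold. The shares of 0.592% and 0.241% are the reference for each count of list members that rose or fell against sham. The excess of higher genes did not hold in 2 settings, with 48 higher and 58 lower when only the arrays compared were fitted, and 81 higher and 86 lower without iron day 1 replicate 1. The iron day 14 and sham arrays did not overlap for any of the 83 genes, while they did not overlap for 30.7% of all genes tested. Short structured RNAs made up 28 of the 59 higher genes, and 25 of the higher and all 24 of the lower genes encoded proteins. The median difference over all genes tested was -0.02 and the median SE 0.13. The 2 iron day 14 arrays correlated at r = 0.977 across genes (which are not independent replicates), against 0.950 to 0.978 between iron day 14 and sham arrays and 0.968 to 0.987 among sham arrays. The count rested on single arrays. It was 25 without iron day 14 replicate 1, 45 without sham day 1 replicate 1 and 167 without iron day 1 replicate 1, an array of another group that entered the estimate of the spread.

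**Figure D1:**
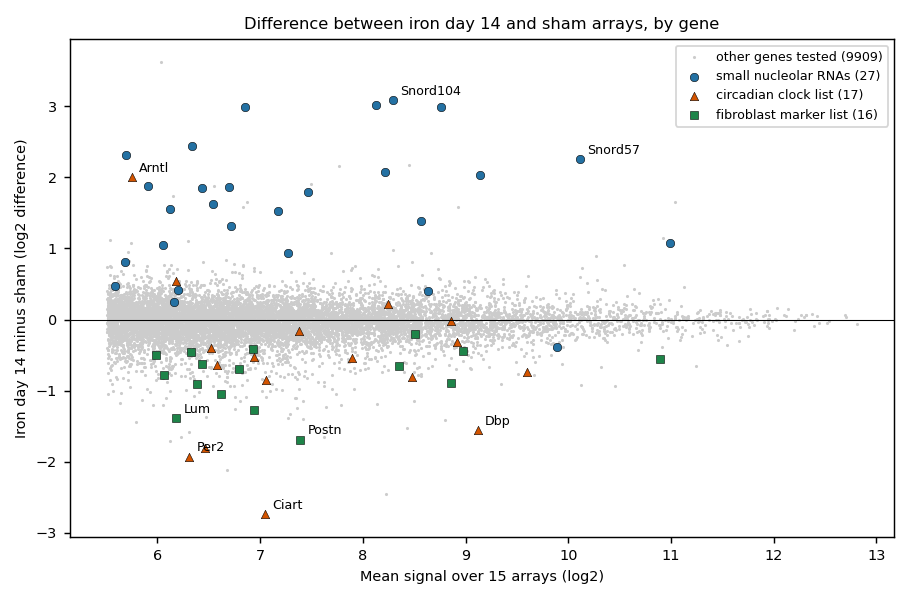
The log2 difference of iron day 14 minus sham (y axis) is plotted against the mean log2 signal over 15 arrays (x axis) for each of the 9969 genes tested. Blue circles are small nucleolar RNAs, of which all but 1 lie above 0, orange triangles the clock list, from -2.73 for Ciart to 2.0 for Arntl, and green squares the fibroblast marker list, all of which lie below 0. Of all 9969 genes, 4572 lie above 0 and 5397 below.

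The preparation carried the identity genes of ventricular muscle. All 20 listed ventricular cardiomyocyte markers were tested, and 0 passed in either direction. Their median difference was -0.04, and their mean level per array, taken relative to each gene's mean over the 15 arrays, was -0.04 and -0.0046 in the iron day 14 arrays, against 0.007, 0.03 and -0.03 in the sham arrays. The signal of Myh6, the main ventricular myosin heavy chain of the adult mouse, was 12.03 and 12.18 in the iron day 14 arrays, against 12.22, 12.27 and 12.25 in the sham arrays. Tnnt2, cardiac troponin T, stood at 12.38 and 12.39 in the iron day 14 arrays, against 12.42, 12.43 and 12.44 in the sham arrays. The groups overlapped in the mean level of the list.

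Small nucleolar RNAs made up 20 of the 59 genes that were higher at iron day 14. Of 53 on the array, 27 passed the filter on low signal, and 20 of these 27 rose and 0 fell, against 0.592% and 0.241% of all genes tested. The median difference of the 27 was 1.63, against -0.02 over all genes tested. A member with low sham signal could pass that filter through its level in the later iron arrays alone, so the share that rose does not describe the 26 members below it. C/D box members rose in 10 of 12 cases (median 2.03) and H/ACA box members in 9 of 14 (median 1.35). The remaining gene, Gm12238, carries the small nucleolar RNA annotation without a box class and had signals of 6.91 and 6.86 in the iron day 14 arrays, against 5.10, 4.99 and 4.93 in the sham arrays, a difference of 1.88 ± 0.15 (SE), adjusted p = 8.40e-05. Its sham signals lay within or below the range of the array medians (4.96 to 5.13), so the size of its difference is uncertain.

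Among C/D box members, Snord104 had signals of 10.02 and 9.81 in the iron day 14 arrays, against 6.82, 6.71 and 6.95 in the sham arrays, which was 8.5-fold higher at iron day 14 (a difference of 3.09 ± 0.35 (SE), adjusted p = 0.000405). Snord82 followed with 9.61 and 9.73 in the iron day 14 arrays, against 6.55, 6.49 and 6.93 in the sham arrays (8.09-fold, a difference of 3.02 ± 0.45 (SE), adjusted p = 0.00411). Snord33 had 8.52 and 8.35 in the iron day 14 arrays, against 5.48, 5.13 and 5.70 in the sham arrays (7.97-fold, a difference of 2.99 ± 0.45 (SE), adjusted p = 0.00418). In each of these genes the lower iron day 14 array lay above the highest sham array with no overlap. Snord47 showed 7.76 and 7.62 in the iron day 14 arrays, against 5.33, 4.82 and 5.60 in the sham arrays (a difference of 2.44 ± 0.29 (SE), adjusted p = 0.000624). Its sham signal of 4.82 lay below the array medians of 4.96 to 5.13, so the size of its difference is uncertain. Snord35b had 7.01 and 6.82 in the iron day 14 arrays, against 4.63, 4.43 and 4.76 in the sham arrays (a difference of 2.31 ± 0.35 (SE), adjusted p = 0.00411). Its sham signals lay below the array medians of 4.96 to 5.13, so the size of its difference is uncertain. Snord57, already abundant in sham, reached 11.30 and 11.33 in the iron day 14 arrays, against 9.05, 8.81 and 9.31 in the sham arrays (a difference of 2.26 ± 0.48 (SE), adjusted p = 0.0464). The day 14 arrays agreed closely for all 6 genes, and the adjusted p of Snord57 stood nearest to the threshold. Leaving out iron day 14 replicate 1 ended the calls of Snord82, Snord33, Snord35b and Snord57, and that of Snord57 was also lost without any one of the iron day 14, iron day 28 or sham arrays and without iron day 1 replicate 2 or 3.

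Among H/ACA box members, Snora3 had the largest difference, with 10.43 and 10.32 in the iron day 14 arrays, against 7.43, 7.18 and 7.54 in the sham arrays (7.94-fold, a difference of 2.99 ± 0.39 (SE), adjusted p = 0.00145). Its other probe set differed by 3.34. The remaining H/ACA members that rose had differences between 0.94 (Snora73a) and 1.86 (Snora16a). Snora73a and Snora73b, known for a role in cutting the ribosomal RNA precursor, differed by 0.94 ± 0.13 and 1.31 ± 0.16 (SE). The 7 small nucleolar RNAs that did not pass were Snora74a and Snora7a, with differences of 2.07 and 2.04 and an adjusted p of 0.0559 for each, Snora75 (0.48), Snord55 (0.42), Snora23 (0.40), Snora31 (0.25) and Snord14e (-0.39), the only member with a difference below 0. Without iron day 14 replicate 1, 12 of the 27 rose, and without any other single array 17 to 22 rose.

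Other short structured RNAs also rose, in 8 of 12 tested members (18 were on the array, median 1.06), against 0.592% of all genes tested. The limit of the signal filter given for small nucleolar RNAs holds here too, so this share does not describe the 6 members below it. Snord73b, a C/D box RNA by name that the gene table classes as a small nuclear RNA, had signals of 8.36 and 7.76 in the iron day 14 arrays, against 4.30, 4.07 and 4.94 in the sham arrays (a difference of 3.62 ± 0.53 (SE), adjusted p = 0.00377). Its sham signals lay below the array medians of 4.96 to 5.13, no detection call was used here, and the size of its difference is therefore uncertain. The 5S ribosomal RNA gene n-R5s136 had 8.70 and 8.38 in the iron day 14 arrays, against 6.74, 6.85 and 6.32 in the sham arrays (a difference of 1.90 ± 0.25 (SE), adjusted p = 0.0016). Rnu12, the U12 RNA of the minor spliceosome, had 7.42 and 6.84 in the iron day 14 arrays, against 5.32, 5.35 and 5.54 in the sham arrays (a difference of 1.73 ± 0.26 (SE), adjusted p = 0.00411). No iron day 14 array overlapped a sham array in these 3 genes. Rpph1, the RNA of ribonuclease P, which trims transfer RNA precursors, differed by 1.14 ± 0.18 (SE, adjusted p = 0.00482), and Rmrp, the RNA of the related ribonuclease MRP, by 0.89 ± 0.11 (SE, adjusted p = 0.00109). The Cajal body guide RNAs Scarna17 and Scarna13, which direct modification of spliceosomal RNAs, differed by 1.58 ± 0.16 and 0.81 ± 0.16 (SE), with adjusted p of 0.000212 and 0.0297. Rn7sk, the 7SK RNA that holds transcription elongation factor P-TEFb inactive, had 12.73 and 12.73 in the iron day 14 arrays, against 12.64, 12.68 and 12.69 in the sham arrays and did not pass (adjusted p = 0.448). The Y RNA Rny3 (1.66, adjusted p = 0.0511) and the telomerase RNA Terc (0.73, adjusted p = 0.119) did not pass either. Without iron day 14 replicate 1, 2 of the 12 rose.

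Longer non-coding transcripts rose in 6 of 140 tested cases and fell in 0 (median 0.11), against 0.592% and 0.241% of all genes tested. Of the 6, 3 are named here. Vaultrc5, a vault RNA that the gene table classes with the long transcripts, had 9.21 and 8.59 in the iron day 14 arrays, against 7.12, 6.56 and 6.55 in the sham arrays (4.45-fold, a difference of 2.15 ± 0.26 (SE), adjusted p = 0.000721). Gas5, a transcript whose introns hold several C/D box RNAs, had 9.66 and 9.52 in the iron day 14 arrays, against 7.41, 7.08 and 7.77 in the sham arrays (a difference of 2.17 ± 0.28 (SE), adjusted p = 0.00111). This value rests on the brightest of its 4 probe sets, and the other 3 differed by -0.09, -0.23 and -0.72, so the Gas5 locus as a whole showed no single direction. Snhg15, another small nucleolar RNA host transcript, had 6.38 and 6.15 in the iron day 14 arrays, against 5.10, 5.41 and 5.08 in the sham arrays (a difference of 1.07 ± 0.13 (SE), adjusted p = 0.00105). Its sham signals of 5.10 and 5.08 lay within the range of the array medians (4.96 to 5.13), so the size of its difference is uncertain. By contrast 0 of 37 microRNA genes above the filter passed (median 0.03, 3 at an unadjusted p under 0.05, against 15.4% of all genes tested). Of the cytosolic ribosomal protein genes matched by symbol, 0 fell and 1 of 38 rose, against 0.241% and 0.592% of all genes tested. The gene that rose was Rplp1, a protein of the ribosomal stalk. It had 11.03 and 10.84 in the iron day 14 arrays, against 10.24, 10.17 and 10.09 in the sham arrays (a difference of 0.77 ± 0.11 (SE), adjusted p = 0.00323).

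The genes that enclose these short RNAs were read beside them. For 14 pairs both the short RNA and the gene enclosing it were tested, over 13 host genes, and in 10 pairs the short RNA rose. Among the hosts of those 10, Gas5 alone passed, and only its brightest probe set was higher. The other probe sets of Gas5 differed by -0.09, -0.23 and -0.72. In the other 9 pairs the short RNA differed by 0.81 to 3.62 and the host by -0.20 to 0.41. Snord82 lies within Ncl, which encodes nucleolin, and Ncl had 8.94 and 8.76 in the iron day 14 arrays, against 8.74, 8.86 and 8.88 in the sham arrays (a difference of 0.02 ± 0.08 (SE), adjusted p = 0.905). The signal of Snord82 minus that of Ncl was 0.67 and 0.97 in the iron day 14 arrays, against -2.19, -2.37 and -1.95 in the sham arrays. Snora3 lies within the ribosomal protein gene Rpl27a, whose signals were 9.41 and 9.09 in the iron day 14 arrays, against 9.24, 9.20 and 9.19 in the sham arrays (a difference of 0.04 ± 0.10 (SE), adjusted p = 0.869). Snord57 lies within Nop56, which encodes a core protein of C/D box particles, and Nop56 had 7.65 and 7.41 in the iron day 14 arrays, against 7.85, 7.60 and 7.74 in the sham arrays (a difference of -0.20 ± 0.11 (SE), adjusted p = 0.383). Snord73b lies within the ribosomal protein gene Rps3a1, which had 7.71 and 7.30 in the iron day 14 arrays, against 7.06, 7.20 and 7.05 in the sham arrays (a difference of 0.41 ± 0.12 (SE), adjusted p = 0.13). These 10 pairs were chosen because the short RNA had passed, so the gap between short RNA and host is given as a description with no test. Whether the probe sets of the short RNAs also read host precursor was not tested.

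**Figure D2:**
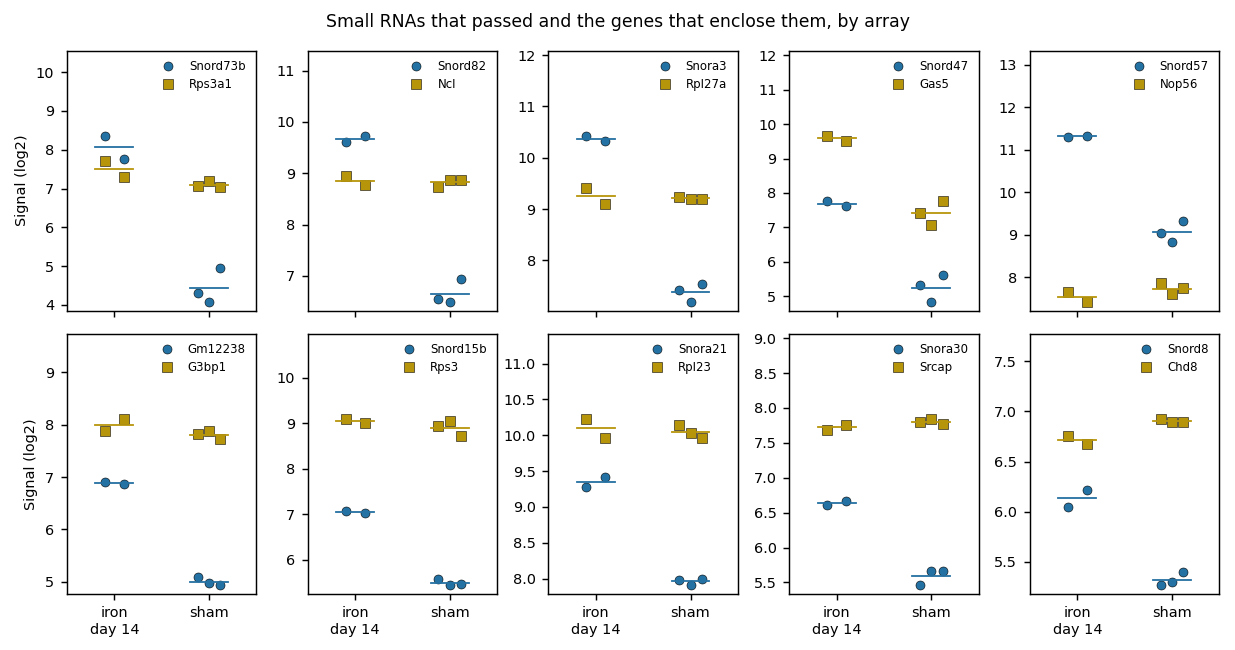
Log2 signal (y axis) of the 10 short RNAs that passed (blue circles) and of the gene that encloses each (yellow squares), with 1 point per array and a line at each group mean, iron day 14 at the left and sham at the right of each panel. The short RNAs lie higher in both iron day 14 arrays in every panel, while the hosts other than Gas5 differ by -0.20 to 0.41.

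As a class mean, the small nucleolar RNAs of the iron day 14 arrays lay between those of iron days 7 and 28. The other short structured RNAs did not. Their level was 0.87 and 0.62 at iron day 14, 0.33 and 0.62 at iron day 7 and 0.74 and 0.78 at iron day 28. The mean level of the 27 small nucleolar RNAs per array, relative to each gene's mean over the 15 arrays, was -0.78, -0.86 and -0.62 in the sham arrays, -0.71, -0.96 and -0.92 at iron day 1, -0.56, 0.17 and 0.35 at iron day 3, 0.66 and 0.59 at iron day 7, 0.88 and 0.81 at iron day 14 and 0.92 and 1.02 at iron day 28. Both iron day 14 arrays lay above all arrays of sham and of iron days 1 and 3, and iron day 3 replicate 1 lay apart from its 2 partners. The differences between exposed groups contain no sham array, although the sham arrays entered the shared estimate of the spread. The median difference of the 27 was 0.20 in iron day 14 against iron day 7, where 0 of the 27 and 0.0% of all genes passed, and -0.13 in iron day 14 against iron day 28, where 0 of the 27 and 0.321% of all genes passed. These counts do not show that the levels of the 3 days were alike. A list of 21 tested genes for small nucleolar particles and ribosome assembly, which holds proteins and the host transcripts Gas5 and Snhg5, had a median difference from sham of -0.02. In that list 2 genes rose, Gas5 (by its brightest probe set only) and Nop10, and 0 fell. Nop10, a core protein of H/ACA particles, had 9.52 and 9.32 in the iron day 14 arrays, against 8.97, 8.87 and 8.63 in the sham arrays (a difference of 0.60 ± 0.13 (SE), adjusted p = 0.0485). Npm1, nucleophosmin, differed by -0.30 ± 0.11 (SE, adjusted p = 0.236) and Nolc1, a chaperone of these particles, by -0.21 ± 0.10 (SE, adjusted p = 0.323).

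Clock genes gave 8 of the 24 protein-coding genes that fell and 2 of the 25 that rose. Of 20 listed clock genes, 18 were on the array and 17 passed the signal filter, Cry1 lying below it. Of the 17, 8 fell and 2 rose, against 0.241% and 0.592% of all genes tested. An unadjusted p under 0.05 was found for 13 (11 lower, 2 higher), against 15.4% of all genes tested. The median difference of the 17 was -0.54. The repressors Per2, Per3, Ciart, Cry2 and Bhlhe41 fell, and the activator Arntl rose.

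Among the repressors, Per2 had signals of 5.15 and 4.95 in the iron day 14 arrays, against 6.85, 7.01 and 7.07 in the sham arrays, 3.8-fold lower at iron day 14 (a difference of -1.93 ± 0.17 (SE), adjusted p = 8.40e-05). Per3 had 5.31 and 5.23 in the iron day 14 arrays, against 6.89, 7.31 and 7.01 in the sham arrays (3.48-fold lower, a difference of -1.80 ± 0.16 (SE), adjusted p = 8.85e-05). Ciart, a repressor of the Arntl and Clock complex, had 5.85 and 5.04 in the iron day 14 arrays, against 8.35, 8.42 and 7.75 in the sham arrays (6.65-fold lower, a difference of -2.73 ± 0.25 (SE), adjusted p = 0.000103), and its other probe set differed by -2.22. No iron day 14 array reached a sham array in any of them. The iron day 14 replicate 2 signals of Per2 (4.95) and Ciart (5.04) lay within or below the range of the array medians (4.96 to 5.13). The sizes of these differences are therefore uncertain for Per2 and Ciart. Cry2, a partner of the Per proteins, had 6.19 and 6.10 in the iron day 14 arrays, against 6.84, 6.80 and 6.71 in the sham arrays (a difference of -0.64 ± 0.12 (SE), adjusted p = 0.0246). Bhlhe41, a repressor that competes for the activators' sites, had 6.42 and 6.49 in the iron day 14 arrays, against 7.40, 7.54 and 6.96 in the sham arrays (a difference of -0.85 ± 0.15 (SE), adjusted p = 0.019). Per1 had 6.75 and 6.54 in the iron day 14 arrays, against 7.07, 7.10 and 7.36 in the sham arrays and did not pass (-0.53, adjusted p = 0.107), nor did Bhlhe40 (-0.54, adjusted p = 0.252).

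Among output factors, Dbp had 8.25 and 8.15 in the iron day 14 arrays, against 9.93, 9.82 and 9.51 in the sham arrays (2.93-fold lower, a difference of -1.55 ± 0.16 (SE), adjusted p = 0.000162). Tef, its paralogue in binding the same promoter element, had 7.93 and 7.95 in the iron day 14 arrays, against 8.70, 8.97 and 8.56 in the sham arrays (a difference of -0.81 ± 0.15 (SE), adjusted p = 0.0229). Usp2, a deubiquitinase with rhythmic expression in many mouse tissues, had 9.18 and 9.09 in the iron day 14 arrays, against 9.81, 9.91 and 9.91 in the sham arrays (a difference of -0.74 ± 0.11 (SE), adjusted p = 0.00435). Hlf, the third member of the Dbp family, had 6.13 and 6.30 in the iron day 14 arrays, against 6.68, 6.89 and 6.25 in the sham arrays and did not pass (adjusted p = 0.452). The groups did not overlap for Dbp, Tef and Usp2, while the Hlf arrays overlapped. In the activator arm, Arntl had 7.26 and 7.08 in the iron day 14 arrays, against 5.12, 4.80 and 5.59 in the sham arrays, 4.0-fold higher at iron day 14 (a difference of 2.0 ± 0.29 (SE), adjusted p = 0.0033). Its sham signals of 5.12 and 4.80 lay within or below the range of the array medians (4.96 to 5.13), so the size of its difference is uncertain. Nfil3, which opposes Dbp at that element, had 6.47 and 6.19 in the iron day 14 arrays, against 5.77, 5.77 and 5.83 in the sham arrays (a difference of 0.54 ± 0.11 (SE), adjusted p = 0.035). Clock differed by 0.21 ± 0.12 (SE, adjusted p = 0.391). The nuclear receptors that repress Arntl did not pass, with -0.02 (adjusted p = 0.982) for Nr1d1 and -0.32 (adjusted p = 0.144) for Nr1d2, and neither did Rora, which activates it (-0.17, adjusted p = 0.509). Leaving out iron day 14 replicate 1 left 4 of 17 lower and 0 higher, and leaving out iron day 14 replicate 2, sham day 1 replicate 1 or sham day 1 replicate 2 left 5 lower. Nfil3 passed in 9 of 23 other settings, and lost its call when each array was centred on its median. Per2, Per3, Ciart and Dbp passed in every setting in which they were tested.

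Promoters of the clock genes that passed were read from RefSeq (GRCm38.p6, 250 bases before to 50 after each start), which held 9 of the 10. Each was searched on both strands for the E-box CACGTG, bound by the activators and the same on both strands, for the D-box TTATGTAA or its reverse complement TTACATAA, bound by Dbp, Tef, Hlf and Nfil3, and for the ROR core AGGTCA or TGACCT, bound by Rora and the Nr1d receptors. None of these motifs overlapped another where they were found. The promoters shown hold a match in a gene that fell, and in 1 gene that rose, with the matches in capitals.
Ciart (chr3:95882179-95882478, minus strand): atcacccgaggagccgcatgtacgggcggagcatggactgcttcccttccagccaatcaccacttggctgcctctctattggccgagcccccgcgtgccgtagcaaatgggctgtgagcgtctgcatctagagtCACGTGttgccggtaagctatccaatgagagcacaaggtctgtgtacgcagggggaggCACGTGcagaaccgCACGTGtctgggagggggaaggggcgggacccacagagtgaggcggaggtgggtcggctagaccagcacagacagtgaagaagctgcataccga
Per3 (chr4:151044616-151044915, minus strand): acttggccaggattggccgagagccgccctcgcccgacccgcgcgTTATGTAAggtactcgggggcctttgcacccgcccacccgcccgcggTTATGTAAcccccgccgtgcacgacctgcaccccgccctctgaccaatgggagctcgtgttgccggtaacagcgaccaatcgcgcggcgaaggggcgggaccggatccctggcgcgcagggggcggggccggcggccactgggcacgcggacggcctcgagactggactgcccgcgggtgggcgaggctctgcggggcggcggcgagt
Bhlhe41 (chr6:145865371-145865670, minus strand): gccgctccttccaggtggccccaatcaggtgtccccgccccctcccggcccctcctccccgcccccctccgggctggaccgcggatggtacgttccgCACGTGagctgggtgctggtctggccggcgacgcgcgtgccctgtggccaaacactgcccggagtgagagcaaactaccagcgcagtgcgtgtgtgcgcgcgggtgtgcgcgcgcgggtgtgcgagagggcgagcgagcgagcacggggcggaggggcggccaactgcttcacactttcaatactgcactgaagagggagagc
Tef, first start (chr15:81802423-81802722, plus strand): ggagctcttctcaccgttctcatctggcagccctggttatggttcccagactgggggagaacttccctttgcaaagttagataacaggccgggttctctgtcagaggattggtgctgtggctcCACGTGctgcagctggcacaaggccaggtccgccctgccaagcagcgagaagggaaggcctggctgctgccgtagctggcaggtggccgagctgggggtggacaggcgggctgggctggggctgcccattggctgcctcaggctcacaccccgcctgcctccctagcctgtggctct
Arntl, second start (chr7:113207261-113207560, plus strand): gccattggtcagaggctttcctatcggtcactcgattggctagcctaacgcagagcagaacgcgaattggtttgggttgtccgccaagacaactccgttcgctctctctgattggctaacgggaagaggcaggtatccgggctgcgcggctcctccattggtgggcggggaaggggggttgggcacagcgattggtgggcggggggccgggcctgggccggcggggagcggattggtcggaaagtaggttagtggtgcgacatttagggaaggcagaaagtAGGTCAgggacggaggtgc
Ciart held 3 E-boxes, whose first bases lie at -116, -58 and -44 from the start, and 0.0883% of the 32851 promoters in the table hold 3 or more. Per3 held 2 D-boxes, at -205 and -158, a number reached by 0.0213% of promoters. Bhlhe41 held 1 E-box at -153 and Tef 1 at -127, with 1 more at -138 of its second start, while 7.15% of all promoters hold at least 1. The second start of Arntl held 1 ROR core at 32 and Nfil3 held 1 at -12, a motif found in 16.3% of all promoters. The windows of Dbp, Cry2, Usp2 and the first start of Arntl held none of these motifs. A match is a description of these letters only.

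For 9 of the 10 clock genes that passed, all but Nfil3, the arrays of iron days 7, 14 and 28 lay on one side and those of sham and of iron days 1 and 3 on the other, without overlap. The mean signal of Per2 over each group was 6.98 in sham, 6.83 at iron day 1, 7.03 at iron day 3, 5.42 at iron day 7, 5.05 at iron day 14 and 5.60 at iron day 28. The corresponding means of Arntl were 5.17, 4.94, 4.42, 7.02, 7.17 and 7.16, in the same order. For Ciart the iron day 14 arrays stood at 5.85 and 5.04, while both iron day 28 arrays were lower still, at 4.35 and 4.43. In iron day 14 against iron day 7 and against iron day 28, 0 of the 17 clock genes passed, against 0.0% and 0.321% of all genes, so these counts say nothing particular to clock genes. The smallest adjusted p among them against day 28 was 0.0769, for Per3 (-0.71 ± 0.18, SE). Transcripts of these genes vary with the time of day in mouse heart, and the time of day at which the hearts were collected is not given in the sources used here.

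**Figure D3:**
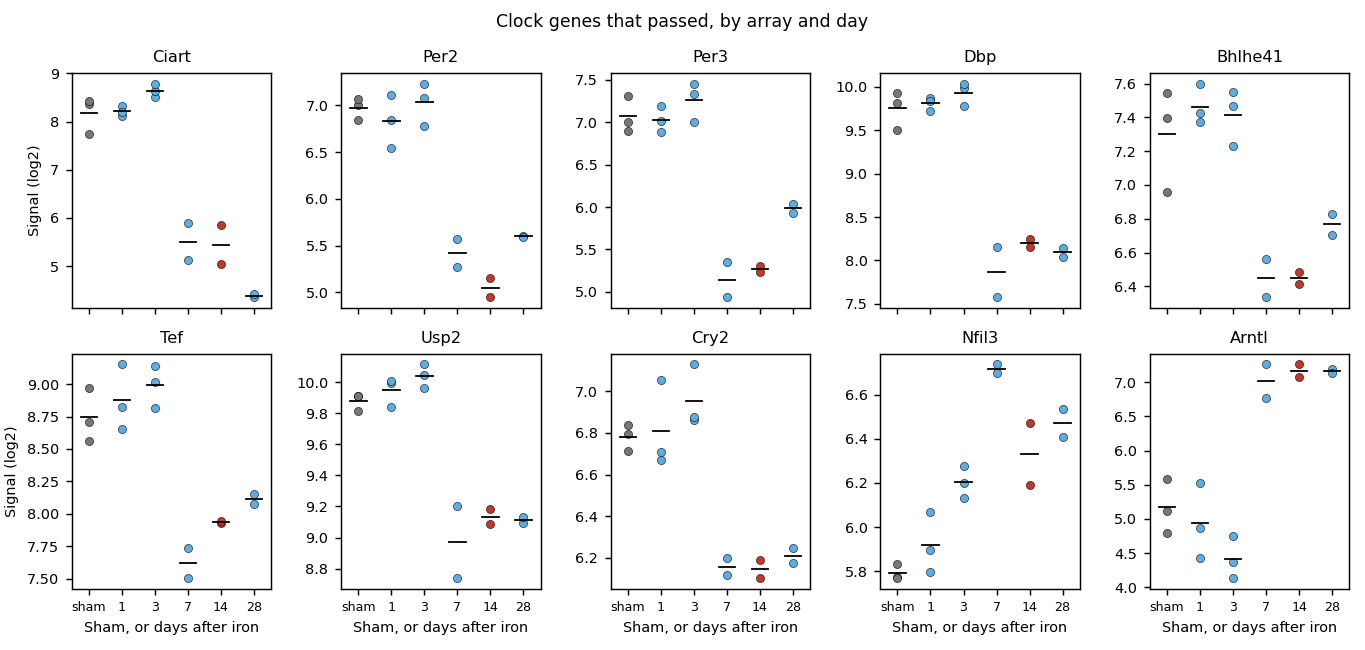
Log2 signal (y axis, a separate range in each panel that does not start at 0) of the 10 clock genes that passed, with sham and then the days after iron on the x axis. Points are arrays (grey sham, red iron day 14, blue the other iron days) and lines are group means. The arrays of iron days 7, 14 and 28 lie apart from those of sham and iron days 1 and 3 in every gene except Nfil3, whose iron day 3 and iron day 14 arrays overlap.

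Other protein-coding genes that rose included regulators of growth and a channel. Ddit4, a stress-induced inhibitor of the mTOR complex, had 7.98 and 7.41 in the iron day 14 arrays, against 5.52, 6.15 and 6.45 in the sham arrays (3.15-fold, a difference of 1.66 ± 0.30 (SE), adjusted p = 0.0187), and its group means were 6.51 at iron day 1, 7.31 at iron day 3, 7.52 at iron day 7 and 6.56 at iron day 28. Hcn2, a pacemaker channel subunit, had 6.78 and 6.74 in the iron day 14 arrays, against 5.97, 6.20 and 6.00 in the sham arrays (a difference of 0.70 ± 0.13 (SE), adjusted p = 0.0228). Gdf11, a secreted factor of the TGF-beta family, had 5.80 and 5.84 in the iron day 14 arrays, against 5.16, 5.34 and 5.07 in the sham arrays (a difference of 0.63 ± 0.11 (SE), adjusted p = 0.0179). The groups did not overlap in these 3 genes. The sham day 3 signal of Gdf11 (5.07) lay within the range of the array medians (4.96 to 5.13), so the size of its difference is uncertain. Ddit4 lost its call without iron day 14 replicate 1 or sham day 1 replicate 1, and Hcn2 and Gdf11 also without iron day 14 replicate 2 or the sham day 3 array. Ddit4 was the only gene among 14 tested p53 targets to pass (median 0.02), and it stands in the glucocorticoid target list too, where 1 of 17 rose (median 0.09).

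A few genes of connective tissue fell at iron day 14. Of 16 tested fibroblast markers 2 fell and 0 rose, against 0.241% and 0.592% of all genes tested. An unadjusted p under 0.05 was found for 12, all lower, against 15.4% of all genes tested in either direction. The median difference of the 16 was -0.67. Of 31 tested extracellular matrix genes 2 fell and 0 rose, against the same 0.241% and 0.592%. An unadjusted p under 0.05 was found for 19, all lower, against the same 15.4%, and the median of the 31 was -0.62. The 2 that fell were the same in both lists. Postn, periostin, a matrix protein of activated fibroblasts, had 6.88 and 6.93 in the iron day 14 arrays, against 8.86, 8.71 and 8.20 in the sham arrays (3.22-fold lower, a difference of -1.69 ± 0.31 (SE), adjusted p = 0.0191). Lum, the collagen-binding proteoglycan lumican, had 5.94 and 5.78 in the iron day 14 arrays, against 7.10, 7.21 and 7.43 in the sham arrays (2.62-fold lower, a difference of -1.39 ± 0.29 (SE), adjusted p = 0.043). Col3a1, a fibrillar collagen chain, had 6.35 and 6.70 in the iron day 14 arrays, against 7.94, 7.50 and 7.95 in the sham arrays and did not pass (adjusted p = 0.102), nor did Timp1, an inhibitor of matrix-degrading proteases (-1.44, adjusted p = 0.0751). The groups did not overlap for Postn, Lum, Col3a1 or Timp1, as was the case for 30.7% of all genes tested.

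Other named decreases included secreted factors and cell surface proteins. Ccdc80, a matrix-associated protein, had 7.70 and 7.85 in the iron day 14 arrays, against 8.94, 8.79 and 9.14 in the sham arrays (a difference of -1.18 ± 0.25 (SE), adjusted p = 0.0466). Igf2, a growth factor, had 6.34 and 6.59 in the iron day 14 arrays, against 7.78, 7.49 and 7.56 in the sham arrays (a difference of -1.15 ± 0.22 (SE), adjusted p = 0.0246), and was the 1 gene of 17 tested in the IGF axis that fell, with 0 that rose. Abca8a, a lipid transporter family member, had 6.48 and 6.89 in the iron day 14 arrays, against 7.61, 7.84 and 7.88 in the sham arrays (a difference of -1.09 ± 0.23 (SE), adjusted p = 0.0433). All 3 sham arrays lay above both iron day 14 arrays for each of them. Tspan4, a membrane tetraspanin, had 7.01 and 6.77 in the iron day 14 arrays, against 8.12, 7.83 and 7.66 in the sham arrays (a difference of -0.98 ± 0.15 (SE), adjusted p = 0.00533). Casp12, a caspase tied to the endoplasmic reticulum in rodents, had 5.23 and 5.21 in the iron day 14 arrays, against 6.36, 6.11 and 6.04 in the sham arrays (a difference of -0.95 ± 0.11 (SE), adjusted p = 0.000624) and was the 1 gene of 18 tested in the apoptosis list that fell. Casp12 passed in every setting in which it was tested, whereas Lum, Ccdc80, Igf2 and Abca8a lost their calls when either iron day 14 array was left out.

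The fibroblast marker level, on a list that holds Postn and Lum, was also lower at iron day 14 than in sham. Its part in these decreases was not tested. The mean fibroblast marker level was -0.26 and -0.15 in the iron day 14 arrays, against 0.52, 0.48 and 0.72 in the sham arrays. It was 0.41, -0.42 and -0.66 at iron day 1, -0.70, -0.74 and -0.61 at iron day 3, 0.49 and 0.10 at iron day 7 and 0.44 and 0.38 at iron day 28. The levels of iron day 1 replicate 2 and replicate 3 and of all iron day 3 arrays were lower than those of iron day 14. The macrophage list had 0.23 and -0.25 in the iron day 14 arrays, against 0.52, 0.22 and 0.62 in the sham arrays, and 0 of 18 genes passed (median -0.53). The endothelial list had -0.34 and 0.24 against 0.55, 0.25 and 0.22 in sham, with 0 of 19 passing (median -0.41). The smooth muscle and pericyte list had -0.35 and 0.16 against 0.43, 0.36 and -0.06 in sham, with 0 of 12 passing (median -0.37). The 2 iron day 14 arrays lay apart from each other in the endothelial, macrophage and smooth muscle lists and overlapped the sham range in each. The defining markers of fibroblasts were not absent from either group: Dcn, decorin, had 10.57 and 10.90 in the iron day 14 arrays, against 11.18, 11.23 and 11.47 in the sham arrays. The counts for connective tissue rested on single arrays. Without either iron day 14 array or either sham day 1 array, 0 of 16 fibroblast markers and 0 of 31 matrix genes fell, without iron day 1 replicate 1 the counts were 8 and 12, and without iron day 1 replicate 3 they were 4 and 4.

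**Figure D4:**
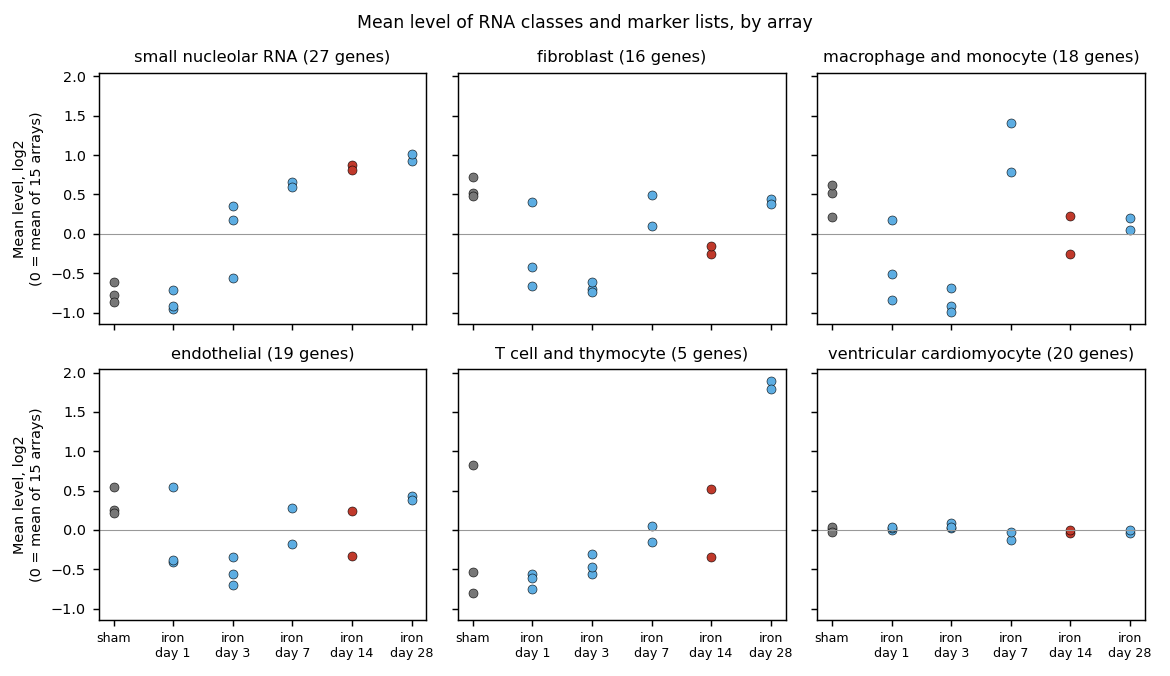
Mean level (y axis, log2, relative to each gene's mean over 15 arrays) of 6 lists of tested genes, with sham and then the iron days on the x axis and 1 point per array (grey sham, red iron day 14, blue the other iron days). The iron day 14 arrays are high for small nucleolar RNAs (0.88 and 0.81) and below sham for fibroblast markers (-0.26 and -0.15), while the ventricular cardiomyocyte list stays between -0.13 and 0.09 in all arrays.

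Heart muscle function lists held few genes that passed. In the sarcomere and Z-disc list 0 rose and 0 fell of 25 tested (median -0.08). Its smallest p belonged to Flnc, filamin C, which cross-links actin at the Z-disc, with 9.09 and 9.49 in the iron day 14 arrays, against 9.96, 9.79 and 9.67 in the sham arrays (adjusted p = 0.0763). Ankrd1, a stretch-responsive titin-binding protein, had 10.76 and 11.03 in the iron day 14 arrays, against 11.95, 11.63 and 11.07 in the sham arrays (adjusted p = 0.206). The groups did not overlap for Ankrd1, as was the case for 30.7% of all genes tested. In the calcium handling list 0 rose and 0 fell of 16 tested (median -0.13), and Slc8a1, the sodium-calcium exchanger, had 9.15 and 9.43 in the iron day 14 arrays, against 9.78, 9.64 and 9.57 in the sham arrays (adjusted p = 0.14). In the ion channel list 1 rose and 0 fell of 19 tested (median 0.10), the riser being Hcn2. Myl7, atrial myosin light chain, had 6.16 and 5.80 in the iron day 14 arrays, against 10.31, 7.57 and 6.39 in the sham arrays (adjusted p = 0.349), with 1 sham day 1 array far above the rest.

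Few metabolic genes passed. In the oxidative phosphorylation list 0 rose and 0 fell of 45 tested, with 10 at an unadjusted p under 0.05, all higher, against 15.4% of all genes tested in either direction (median 0.09), and Ndufa1, a complex I subunit, had 9.01 and 8.92 in the iron day 14 arrays, against 8.44, 8.49 and 8.08 in the sham arrays (adjusted p = 0.0619). Ndufa3, another complex I subunit outside that list, rose (a difference of 0.46 ± 0.10 (SE), adjusted p = 0.0464). In glycolysis, pyruvate and the tricarboxylic acid cycle 0 rose and 0 fell of 32 tested (median -0.0077), and in the PPAR and fasting list 0 rose and 0 fell of 18 tested (median 0.05). In the autophagy list 0 rose and 0 fell of 20 tested (median 0.06), where Ulk1, the kinase that starts autophagosome formation, had 7.89 and 7.72 in the iron day 14 arrays, against 7.31, 7.38 and 7.47 in the sham arrays (adjusted p = 0.0748).

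Lists for the classical answers to radiation and for inflammation held few genes past the threshold. In DNA damage sensing and repair 0 rose and 0 fell of 23 tested (median -0.03), and in the cell cycle list 0 rose and 0 fell of 19 tested (median -0.17). Among p53 targets other than Ddit4, Rrm2b, a ribonucleotide reductase subunit, differed by 0.29 ± 0.13 (SE, adjusted p = 0.309) and Gadd45a by 0.20 ± 0.12 (SE, adjusted p = 0.451). In the antioxidant and glutathione list 0 rose and 0 fell of 33 tested (median -0.04), and in the list for handling of cellular iron 0 rose and 0 fell of 15 tested (median -0.15). In the interferon list 0 rose and 0 fell of 16 tested. All 16 differences were below 0 (median -0.36), as were 5397 of all 9969. An unadjusted p under 0.05 was found for 4 of the 16, against 15.4% of all genes tested. In the NF-kB and cytokine list 0 rose and 0 fell of 17 tested, with 8 at an unadjusted p under 0.05, all lower, against 15.4% of all genes tested (median -0.34). Its leading gene Ptgs2, which encodes cyclooxygenase 2, had 5.33 and 5.38 in the iron day 14 arrays, against 7.09, 7.02 and 6.69 in the sham arrays (-1.58, adjusted p = 0.0511). Vcam1, an adhesion molecule for leukocytes, had 6.36 and 7.04 in the iron day 14 arrays, against 8.01, 7.90 and 7.90 in the sham arrays (adjusted p = 0.109). Both genes were lower in both iron day 14 arrays than in every sham array, without passing the test over all genes. The arrays likewise did not overlap, in either direction, for 30.7% of all genes tested.

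Iron day 14 was also set against the neighbouring exposed days. Against iron day 7, 0 of 9969 genes passed with limma (0.0%), the smallest adjusted p being 0.103, while 1443 had an unadjusted p under 0.05 (14.5%). Macrophage genes had the largest shift among the cell type lists that held more than 10 tested genes, with a median of -1.13 and 17 of 18 at an unadjusted p under 0.05. The shorter mesothelial (7 tested) and B cell (2 tested) lists shifted as far, with medians of -1.21 and -1.16, and the other shorter lists by less. The macrophage level was 0.23 and -0.25 at iron day 14, against 1.41 and 0.79 at iron day 7. Hmox1, heme oxygenase, had 5.98 and 5.44 at iron day 14, against 7.56 and 6.87 at iron day 7 (-1.50 ± 0.25, SE, adjusted p = 0.103). Irf1, an interferon-responsive transcription factor, had 5.46 and 5.82 at iron day 14, against 7.12 and 6.76 at iron day 7 (-1.30 ± 0.19, SE, adjusted p = 0.103). Igsf6, an immunoglobulin superfamily gene of myeloid cells, differed by -0.56 ± 0.09 (SE). The higher genes with the smallest p were Inha, Fam160a2 and A630072M18Rik, with differences of 0.62, 0.48 and 0.91. Without iron day 7 replicate 2 the count was 350, without iron day 1 replicate 1 it was 37 and without iron day 14 replicate 1 it was 2.

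Against iron day 28, 32 genes passed (0.321%), of which 31 were lower (0.311%) and 1 higher (0.01%) at iron day 14. T cell and histone genes led the lower group. Thy1, a surface protein of mouse T cells that also stands in the fibroblast list, had 6.68 and 5.62 at iron day 14, against 8.87 and 8.72 at iron day 28 (-2.64 ± 0.50, SE, adjusted p = 0.0468). Cd4, the T helper coreceptor, had 6.29 and 5.25 at iron day 14, against 8.14 and 8.03 at iron day 28 (-2.32 ± 0.42, SE, adjusted p = 0.0438). Satb1, a chromatin organiser of developing T cells, had 7.37 and 6.68 at iron day 14, against 8.98 and 8.82 at iron day 28 (-1.87 ± 0.29, SE, adjusted p = 0.0303). The linker histone gene H1f5 had 7.17 and 6.61 at iron day 14, against 8.93 and 8.77 at iron day 28 (-1.96 ± 0.32, SE, adjusted p = 0.0341). Both iron day 28 arrays lay above both iron day 14 arrays in all 4 genes, and the 2 days did not overlap in 61.8% of all genes tested. Edem1, a factor in disposal of misfolded proteins, differed by -1.63 ± 0.30 (SE), and Dusp7, a phosphatase of MAP kinases, was the higher gene (0.70 ± 0.13, SE). Of the tested lists, 2 of 5 T cell genes and 4 of 16 replication-dependent histone genes fell. The signal filter used the mean over all arrays, so a gene could pass it through its level at iron day 28 alone. These shares therefore do not describe members below the filter, among them 11 of the 16 T cell genes on the array. The T cell level was 0.52 and -0.34 at iron day 14, against 1.90 and 1.79 at iron day 28, and -0.80, -0.54 and 0.83 in sham, so the sham day 3 array also stood high. Its part in the results against sham was not tested, and with the 2 sham day 1 arrays alone as control 68 genes passed.

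The count against iron day 28 rested on single arrays and on the scaling. The 2 iron day 28 arrays correlated at r = 0.995 across genes, against 0.968 to 0.989 within the other groups, and nothing in the labels says how they were prepared. The count was 0 or 1 when either of them was left out. It was also 0 without iron day 14 replicate 1, iron day 3 replicate 1 or iron day 3 replicate 2, 11 without iron day 1 replicate 3 or sham day 1 replicate 1, 15 without iron day 3 replicate 3, 118 without iron day 1 replicate 1, 173 without the sham day 3 array, 204 and 208 without iron day 7 replicate 1 and replicate 2, and 487 without iron day 14 replicate 2. With each array centred on its median it was 0.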

How the data were processed

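Biotinylated targets were made from total RNA by an Affymetrix protocol and hybridised to 15 arrays, per the labels. The authors deposited log2 signals for 34760 probe sets, with a range of 0.234 to 13.01 and 0 missing values. MAS5 is named in the submitters' processing notes (version and role not given in the sources used here), and the log2 values were used as deposited. Array medians lay between 4.96 and 5.13, and the number of arrays limits the precision.

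Of the probe sets, 21640 carried 1 gene symbol, 1321 several and 11799 none. The brightest probe set represented each of 19937 named genes, and the 9969 genes with a mean signal at or above the 50th percentile (5.5125) were tested. One limma 3.58.1 model (R 4.3.3) with 6 group means, moderated variances and an intensity trend was fitted to 15 arrays. Comparisons were iron day 14 minus sham, minus iron day 7 and minus iron day 28, with two-sided p-values adjusted by Benjamini-Hochberg over all genes tested and a threshold of 0.05. The model was checked on simulated data.

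Named genes were, per direction, the top 12 by size of difference against sham and the top 5 in the other comparisons, among genes that passed with no overlap of the arrays (those with the smallest p where too few qualified), plus up to 4 members of each gene list by p. Other genes were named outside this rule for description, among them further clock genes, short RNAs, host genes and cardiomyocyte markers. Of 947 symbols in 45 lists, 864 were on the array and 722 were tested. The comparison, gene classes, host pairs and lists were chosen with earlier results of these data known. Gene classes, host genes and promoters came from RefSeq tables (GRCm38.p6). The alternatives were quantile normalization, median centring, filters, variance trend, array weights, arrays in the fit, replicate numbers as a block, sham day 1 alone as control, all probe sets, and leaving out each array. The proton-exposed mice of the study were not analysed here.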

Additional observations from a re-analysis of the deposited data

Results flagged for a closer look

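In the exposed mice, 32 genes differed between iron day 14 and iron day 28 in the test of the 2 days against each other, a difference that contains no sham array. The named ones were Dusp7, higher at iron day 14 by 0.70 on the log2 scale, and Thy1 (-2.64), Cd4 (-2.32), H1f5 (-1.96), Satb1 (-1.87) and Edem1 (-1.63), lower at iron day 14. With each array centred on its median 0 genes passed.

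Probe sets outside the gene table also carried a signal. Of 4317 probe sets above the filter with several gene symbols or none, 92 passed between iron day 14 and sham (2.13%), 83 of them higher and 9 lower at iron day 14, with differences of -1.21 to 4.86. They are not named here because the annotation gives no single gene for them.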

How the results depend on the processing

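The 83 genes of iron day 14 against sham became 54 with the replicate number as a block and 202 with all 17380 probe sets tested in place of 1 per gene. The count lay between 63 and 106 under the other settings, apart from those that leave out each array in turn. Leaving out 1 array gave 25 to 167. Of the 83, 24 passed in every one of up to 24 other settings in which they were tested, and 0 changed direction in any. The 0 genes against iron day 7 became 3 with the replicate block and 0 to 350 without 1 array. The 32 genes against iron day 28 became 2 with quantile normalization, 0 with median centring, 56 with no filter, 7 with the stricter filter, 446 with array weights, 270 with only the arrays compared, 105 with the replicate block and 0 to 487 without 1 array. The cause of these shifts was not tested, except that the stricter filter tests fewer genes and all probe sets tests more. Same-numbered arrays of different groups had residual correlations of -0.394 to 0.565 (median 0.06, 11 of 31 above 0.1). For other numbers they were -0.565 to 0.49 (median -0.03, 14 of 50 above 0.1). The numbers were not shown to pair arrays, and whether they do was not tested. With 2 iron day 14 arrays and no sham array after day 3, precision is limited by array number, and day and exposure cannot be told apart.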

Other observations

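Further lists held few genes that passed between iron day 14 and sham. Gdf11 was the 1 gene of 20 tested in TGF-beta signalling that rose, and 0 fell (median -0.24). Tgfbr2, a receptor for TGF-beta ligands, had 7.00 and 6.95 in the iron day 14 arrays, against 7.62, 7.58 and 7.75 in the sham arrays (-0.67, adjusted p = 0.0506). Of 8 tested MHC class II genes, which present antigen on immune cells, 0 passed and 0 had an unadjusted p under 0.05. All 8 lay below 0 (median -0.33), as did 5397 of all 9969 genes tested. Against iron day 7 the median of the 8 was -1.09, with 0 passing. Of 9 tested MHC class I and immunoproteasome genes 0 passed (median -0.04). Among 27 immediate early genes 0 passed (median -0.19), and their median against iron day 7 was -0.79, again with 0 passing. No gene passed among 18 angiogenesis factors (median -0.17), 25 genes of hypertrophy signalling (0.03), 20 heat shock and chaperone genes (-0.0087), 25 genes of the unfolded protein response (-0.08), 26 proteasome genes (0.01), 9 fetal and atrial genes (-0.50) or 8 temperature-responsive genes (0.02). In a hand-made list of 32 tested ribosomal protein genes, Rplp1 rose and 0 fell (median 0.08).

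Markers of cells that a heart digest could carry over were also measured, and none passed against sham. Of the T cell list 5 of 16 genes on the array were above the filter (median 0.14), of the B cell list 2 of 10 (-0.19), of the neutrophil list 1 of 13 (-1.15), of the erythroid list 3 of 6 (-1.65), of the adipocyte list 5 of 10 (-0.11), of the lung epithelium list 8 of 15 (-0.07), of the neural and Schwann list 2 of 10 (-0.11) and of the mesothelial list 7 of 8 (-0.14). The lung epithelium level was -0.25 and 0.49 in the iron day 14 arrays, against 0.05, -1.03 and 1.44 in the sham arrays, where the day 3 array stood highest. The erythroid level was -1.31 and 0.81 in the iron day 14 arrays, against 0.35, 2.30 and 1.38 in the sham arrays. The replication-dependent histone level was 0.05 and -0.33 in the iron day 14 arrays, against -0.23, -0.39 and 0.66 in the sham arrays, where the day 3 array again stood highest.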
